A study of Mus musculus with 12 samples.

Results

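The 8 genes *Siglech*, *Bst2*, *Tcf4*, *Irf8*, *Spib*, *Ly6d*, *Bcl11a* and *Pacsin1* are typical of plasmacytoid dendritic cells, a blood cell type that is a main source of type I interferon. They were matched by gene symbol. The rule that lists them uses no measured value, but they were chosen with earlier results of these data known. All 8 were found among the 55421 genes of the count table and were among the 15999 genes with enough counts to be tested. RNA was sequenced from bone marrow cells sorted as endothelial cells from 12 mice in 4 groups of 3, with a single library per mouse. All mice were 20 weeks old. Controls were naive C57BL/6J mice, mice with hypertension were C57BL/6J and received angiotensin II chronically, mice with atherosclerosis carried the knockout allele Apoe(tm1Unc) in all cells and were fed a western diet, and mice with myocardial infarction (MI) were C57BL/6J and were labelled as taken on day 2 after MI. The text of the study gives another day for the last group. The controls were naive mice, so that knockout and diet cannot be told apart in atherosclerosis, nor infarction and surgery in MI. In hypertension, angiotensin II cannot be told apart from the minipump surgery that the study describes. The same 3 controls served in all comparisons with control, and libraries are named by the replicate numbers 2, 3 and 4 of their labels.

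Plasmacytoid dendritic cells develop in the bone marrow from lymphoid and myeloid progenitors and sense viral and self nucleic acids through Toll-like receptors in endosomes, after which they release type I interferon. Their identity depends on the E protein encoded by *Tcf4*, which is opposed by Id2 and works together with other transcription factors that these cells share with B cells. In mice they carry CD45, B220 and the antigens Siglec-H and BST2 on the cell surface. The gate used for the sort was set on CD45-negative, CD31-high and SCA-1-positive cells, and lineage depletion included an antibody to B220.

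Total counts per library were between 17007088 and 25136936 (median 19419915), and a count of 3, taken as the smallest measured amount, corresponded to 0.116 to 0.176 CPM (counts relative to the library total scaled by TMM). *Apoe* was at 781 ± 98.4 CPM (SD, n = 3) in controls and at 10.6 ± 3.81 CPM (SD, n = 3) in Apoe-/- mice, as labelled. *Cdh5*, which encodes the endothelial cadherin, was at 2.00 to 4.19 CPM in the 12 libraries, whereas *Ptprc*, which encodes CD45, was at 463 to 814 CPM. The sum of 15 endothelial genes, given like all sums of lists per library total without TMM scaling, was between 157 and 323 CPM and that of 13 neutrophil genes between 35397 and 92962 CPM, so that the libraries held much RNA of blood cells. All 8 plasmacytoid dendritic cell genes were detected in each library, between 90 counts for *Pacsin1* and 6109 counts for *Irf8*. In sorted cells measured in bulk, fewer cells of a type and less RNA per cell cannot be told apart.

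The genes lie on 6 chromosomes of GRCm38 (GENCODE M21). *Siglech* (chr7:55768178-55778925, plus strand) and *Spib* (chr7:44525993-44532071, minus strand) are both on chromosome 7, at 36.1 and 24.8 Mb from *Apoe*. *Bst2* (chr8:71534255-71537456, minus strand) and *Irf8* (chr8:120736358-120756694, plus strand) share chromosome 8. *Ly6d* is at chr15:74762056-74763620 (minus strand), *Bcl11a* at chr11:24078056-24174123 (plus strand), *Pacsin1* at chr17:27655509-27711482 (plus strand) and *Tcf4* on chromosome 18. *Irf8* overlaps the annotated gene Gm20388 on its own strand and *Bcl11a* overlaps 2 antisense genes, so that reads of these genes and their partners may have been divided or left uncounted.

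Per kilobase of exon (the union of annotated exons), the mean level over the 12 libraries was highest for *Ly6d*, at 77.9 ± 21.6 CPM per kb (SD), followed by *Bst2* at 54.8 ± 15.1 and *Irf8* at 33.9 ± 5.17. *Siglech* followed at 14.1 ± 5.11 CPM per kb and *Spib* at 13.4 ± 4.22, *Tcf4* at 4.64 ± 1.22 and *Bcl11a* at 4.42 ± 1.03, and within each of these pairs the levels differed by less than the spread over libraries. *Pacsin1* was lowest, at 1.41 ± 0.445 CPM per kb. The order depended on the length used. Per kilobase of the longest coding transcript *Irf8* came first, at 84.1 CPM per kb, ahead of *Ly6d* at 77.9 and *Bst2* at 62.5, and *Tcf4*, whose annotated exons are much longer in sum than its longest coding transcript, stood at 14.8, between *Siglech* at 20.7 and *Spib* at 13.8.

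The 250 bases before the transcription start were taken for 6 of the 8 genes (RefSeq, GRCm38.p6), and not for *Ly6d* or *Tcf4*. Both strands were searched for the interferon-stimulated response element (here GAAA, any 2 bases and GAAA again). The search also covered the ETS-IRF composite element (here GGAA, any 2 bases and GAAA) and the ETS core AGGAAG that PU.1 and Spi-B recognize. The E-boxes CAGGTG and CAGCTG, to which E proteins bind, were searched as well. The bases are shown for *Bst2* and *Siglech*, the surface antigens that varied together over libraries, and for *Spib*, which had the largest log2 fold change in MI. Matches are in capitals.
Bst2: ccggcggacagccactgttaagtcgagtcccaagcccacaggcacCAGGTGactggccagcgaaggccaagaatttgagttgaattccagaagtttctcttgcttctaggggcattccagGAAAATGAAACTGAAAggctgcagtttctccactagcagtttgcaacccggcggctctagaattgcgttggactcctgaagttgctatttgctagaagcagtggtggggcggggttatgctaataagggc
Siglech: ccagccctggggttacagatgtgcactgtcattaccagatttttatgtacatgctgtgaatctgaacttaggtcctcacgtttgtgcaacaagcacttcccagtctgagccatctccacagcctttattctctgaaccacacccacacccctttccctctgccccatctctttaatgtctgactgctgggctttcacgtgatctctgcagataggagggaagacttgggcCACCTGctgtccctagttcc
Spib: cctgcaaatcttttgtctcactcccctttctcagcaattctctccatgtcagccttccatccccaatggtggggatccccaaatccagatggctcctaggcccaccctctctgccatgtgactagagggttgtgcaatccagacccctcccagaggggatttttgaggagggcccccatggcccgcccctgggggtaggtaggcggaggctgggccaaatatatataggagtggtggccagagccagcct
The windows are chr8:71537473-71537722 (minus strand), chr7:55767934-55768183 (plus strand) and chr7:44532072-44532321 (minus strand). The *Bst2* window held 2 overlapping matches to the interferon-stimulated response element, at 130 to 121 and 124 to 115 bases before the start, and a CAGGTG. The former was present in 2.98% and CAGGTG in 17.2% of 32851 windows of this length. The *Siglech* window held CAGGTG on the opposite strand, 20 to 15 bases before the start. No match to the searched letters was present in the windows of *Spib*, *Bcl11a* and *Pacsin1*, while *Irf8* had 2 windows, of which the downstream one held CAGGTG. The ETS-IRF element, AGGAAG and CAGCTG were present in 2.3%, 29.5% and 13% of all windows and in none of these 7.

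Among the surface proteins, *Siglech*, the sialic acid-binding receptor that marks plasmacytoid dendritic cells in mice, was at 50.5, 50.1 and 54.1 CPM in control replicates 2, 3 and 4, at 43.1, 44.4 and 28.7 CPM in hypertension, at 49.4, 67.2 and 88.2 CPM in atherosclerosis and at 25.9, 36.6 and 33.0 CPM in MI. All 6 libraries of hypertension and MI were below all controls, and the atherosclerosis libraries overlapped with controls. *Bst2*, which encodes tetherin, an interferon-induced protein that holds budding virus at the cell surface, was at 53.3, 44.2 and 45.2 CPM in controls, at 47.3, 37.3 and 37.0 CPM in hypertension, at 53.5, 70.7 and 79.7 CPM in atherosclerosis and at 32.5, 46.8 and 46.8 CPM in MI. The 3 atherosclerosis libraries were above all controls, although replicate 2 was only just above the highest of them, and the other groups overlapped with controls. *Ly6d*, a surface protein that marks lymphoid progenitors with B cell potential and plasmacytoid dendritic cells derived from them, was at 79.9, 72.8 and 58.8 CPM in controls, at 52.4, 55.1 and 45.1 CPM in hypertension, at 42.5, 85.3 and 71.3 CPM in atherosclerosis and at 33.3, 48.7 and 49.9 CPM in MI. Hypertension and MI libraries were again below all controls, and atherosclerosis spanned the widest range.

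The transcription factors were less alike. *Tcf4*, which encodes the E protein E2-2, was at 113, 132 and 106 CPM in controls, at 105, 123 and 145 CPM in hypertension, at 204, 155 and 145 CPM in atherosclerosis and at 70.2, 107 and 119 CPM in MI. *Bcl11a*, a zinc finger factor required for plasmacytoid dendritic cells and B cells, was at 58.1, 55.4 and 50.6 CPM in controls, at 44.1, 47.9 and 65.2 CPM in hypertension, at 92.0, 73.1 and 58.3 CPM in atherosclerosis and at 46.5, 48.0 and 60.1 CPM in MI. For both genes the atherosclerosis libraries were above all controls, with replicate 2 highest, whereas the same replicate was the lowest of its group for *Siglech*, *Bst2*, *Irf8*, *Ly6d* and *Pacsin1*. *Spib*, an ETS factor of plasmacytoid dendritic cells and B cells, was at 50.3, 50.03 and 36.8 CPM in controls, at 33.0, 45.7 and 48.8 CPM in hypertension, at 45.6, 45.8 and 40.7 CPM in atherosclerosis and at 12.9, 21.5 and 29.0 CPM in MI. The MI libraries lay below each of the other 9. *Irf8*, an interferon regulatory factor needed by dendritic cells, monocytes and B cells, was at 232, 276 and 237 CPM in controls, at 230.5, 240.1 and 196 CPM in hypertension, at 208, 304 and 302 CPM in atherosclerosis and at 230.2, 216 and 201 CPM in MI. Its MI libraries were just below the lowest control, and it varied least of the 8 genes, with 1.55-fold between the highest and the lowest library, against 3.91-fold for *Spib*.

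*Pacsin1*, which encodes a cytoplasmic membrane-bending adaptor used by plasmacytoid dendritic cells for interferon release, was at 10.2, 11.7 and 11.5 CPM in controls, at 9.12, 8.76 and 5.01 CPM in hypertension, at 7.03, 13.7 and 12.99 CPM in atherosclerosis and at 4.97, 8.41 and 7.12 CPM in MI. Hypertension and MI libraries were below all controls, as for *Siglech* and *Ly6d*. In MI, replicate 2 was the lowest of its group for 7 of the 8 genes and the highest for *Irf8*.

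**Figure D1:**
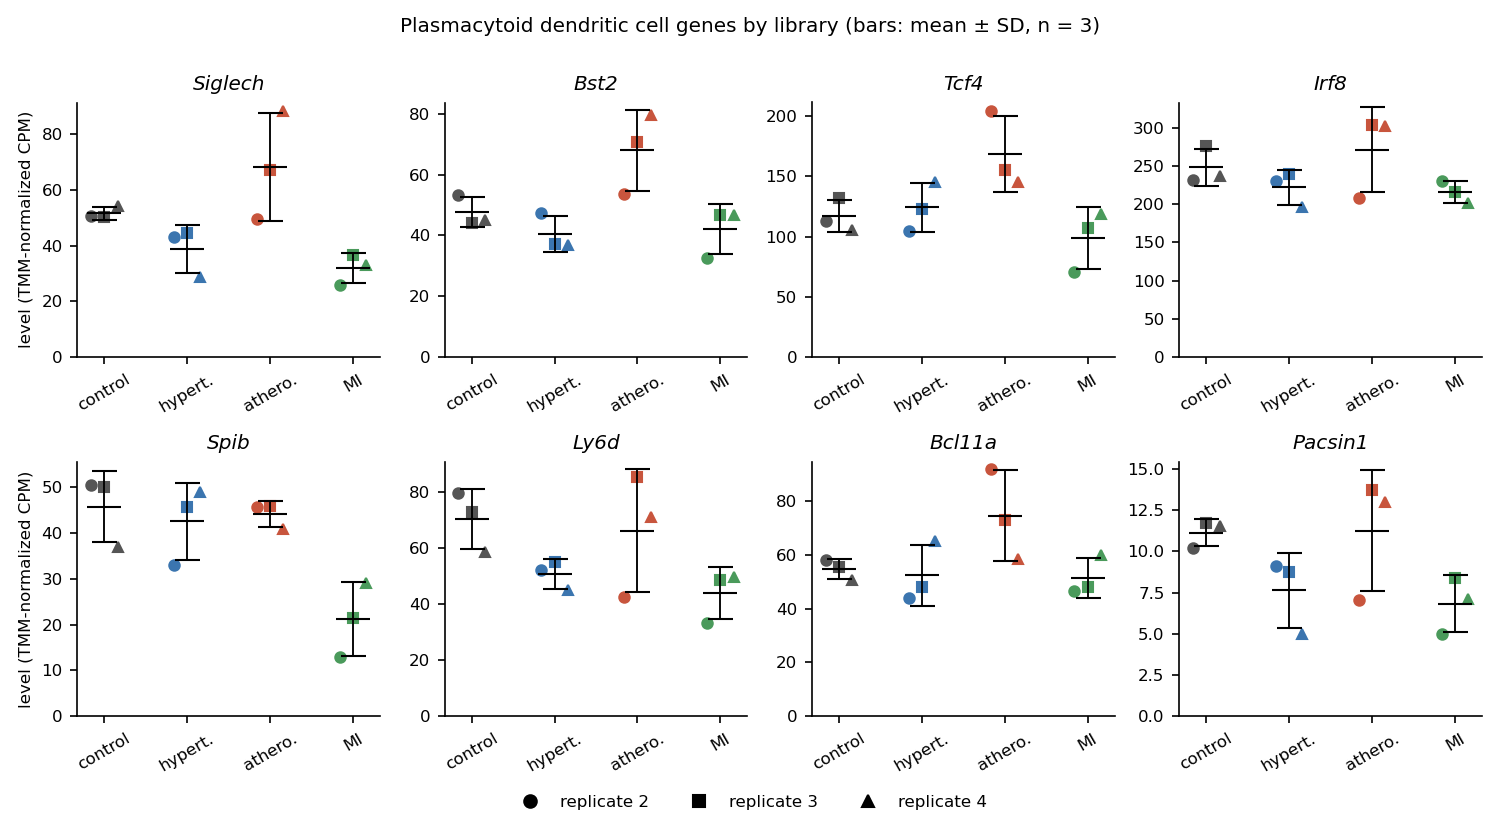
Levels of the 8 plasmacytoid dendritic cell genes in TMM-normalized CPM (vertical axes, linear and starting at 0) in control, hypertension, atherosclerosis and MI libraries. Points are single mice, with the replicate number as the symbol, and bars are mean ± SD (n = 3). *Spib* lies between 12.9 and 29.0 CPM in MI, below all other libraries, and *Siglech* spans 49.4 to 88.2 CPM in atherosclerosis.

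The comparison of hypertension with controls asked whether these transcripts differed between mice given chronic angiotensin II and naive mice. No gene passed the test, at adjusted p between 0.951 and 0.976 (edgeR quasi-likelihood test, adjusted by Benjamini-Hochberg over 15999 genes), and 0% of all genes did so. At an unadjusted p under 0.05 none of the 8 genes differed either, against 3.71% of all genes. *Siglech*, *Ly6d* and *Pacsin1* did not overlap between groups and were lower in hypertension, 3 of 8 genes, beside 7.81% of all genes in that direction. *Siglech* was at 38.7 ± 8.68 CPM against 51.5 ± 2.20 CPM in controls (SD, n = 3), a log2 fold change of -0.41 with a 95% confidence interval from -0.89 to 0.064. The log2 fold change was -0.47 for *Ly6d* (-0.98 to 0.042) and -0.54 for *Pacsin1* (-1.18 to 0.092), and the exact permutation test gave 0.1 for each, which is the smallest p that 3 against 3 libraries allow. The intervals of the other 5 genes also held 0. The median log2 fold change of the 8 genes was -0.20, beside -0.013 over all genes tested. The likelihood-ratio test and DESeq2 also called 0 of the 8. With only these 2 groups in the fit, 3 of the 8 genes were at an unadjusted p under 0.05 and none was called, beside 0 of 15315 genes called. The share of all genes at an unadjusted p under 0.05 was not determined in that fit. Without hypertension replicate 4, the log2 fold change was -0.23 for *Siglech*, -0.39 for *Ly6d* and -0.31 for *Pacsin1*, and with the share of neutrophil counts as a covariate it was -0.24, -0.16 and -0.24.

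In atherosclerosis, where Apoe-/- mice were compared with controls, none of the 8 genes passed the adjusted test (adjusted p 0.719 to 0.998, edgeR quasi-likelihood test), beside 0.144% of all genes, and neither the likelihood-ratio test nor DESeq2 called any. *Bst2* was at 68.0 ± 13.3 CPM against 47.6 ± 4.98 CPM in controls (SD, n = 3), with a log2 fold change of 0.51 ± 0.19 (SE, unadjusted p = 0.0183, edgeR, 3 of 3 libraries above all controls). *Tcf4* was at 168 ± 31.7 CPM against 117 ± 13.6 CPM (log2 fold change 0.53 ± 0.21 SE, unadjusted p = 0.0270, edgeR, 3 of 3 above) and *Bcl11a* at 74.5 ± 16.9 CPM against 54.7 ± 3.80 CPM (log2 fold change 0.45 ± 0.19 SE, unadjusted p = 0.0394, edgeR, 3 of 3 above). These 3 of 8 genes stand beside 3.97% of all genes at an unadjusted p under 0.05 and higher, and beside 5.06% that were higher without overlap. *Siglech* had a log2 fold change of 0.41 (95% confidence interval -0.069 to 0.88), and the other 4 genes lay between -0.088 and 0.13. The median of the 8 genes was 0.27, beside 0.012 over all genes. The count at an unadjusted p under 0.05 was below 3 with any of the 6 libraries left out. It was 1 without control replicate 2, 1 without control replicate 3, 0 without control replicate 4 and 2 without each of the atherosclerosis replicates. Without atherosclerosis replicate 2, the log2 fold change was 0.67 for *Bst2* and 0.60 for *Siglech*, and 0.37 for *Tcf4* and 0.27 for *Bcl11a*. Without atherosclerosis replicate 4, it was 0.38 for *Bst2*, 0.18 for *Siglech*, 0.62 for *Tcf4* and 0.59 for *Bcl11a*.

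In MI, the log2 fold changes of all 8 genes against controls were negative, with a median of -0.46 beside 0.00022 over all genes. None passed the adjusted test (adjusted p = 1.00 for each, edgeR quasi-likelihood test), nor did any of all genes (0%), and the likelihood-ratio test and DESeq2 called 0 of the 8. *Spib* was at 21.1 ± 8.06 CPM against 45.7 ± 7.72 CPM (SD, n = 3), 53.8% lower, with a log2 fold change of -1.11 (95% confidence interval -1.66 to -0.57, unadjusted p = 0.000686, edgeR, 3 of 3 libraries below all controls). By unadjusted p it ranked 3 among the 15999 genes. *Siglech* was at 31.8 ± 5.40 CPM against 51.5 ± 2.20 CPM, 38.2% lower (log2 fold change -0.70, 95% confidence interval -1.17 to -0.22, unadjusted p = 0.00779, edgeR, 3 of 3 below). *Ly6d* (log2 fold change -0.68, unadjusted p = 0.0134) and *Pacsin1* (-0.70, unadjusted p = 0.0338) were also below controls in 3 of 3 libraries (edgeR). Thus 4 of 8 genes were at an unadjusted p under 0.05 and lower, beside 1.57% of all genes, and 5 of 8, *Irf8* included, were lower without overlap, beside 4.59% of all genes. *Bst2* (-0.18, 95% confidence interval -0.59 to 0.23), *Tcf4* (-0.24, -0.70 to 0.21) and *Bcl11a* (-0.086, -0.51 to 0.33) overlapped between groups. Without MI replicate 2, the log2 fold change was -0.86 for *Spib* and -0.57 for *Siglech*, and 2 of 8 genes were at an unadjusted p under 0.05.

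**Figure D2:**
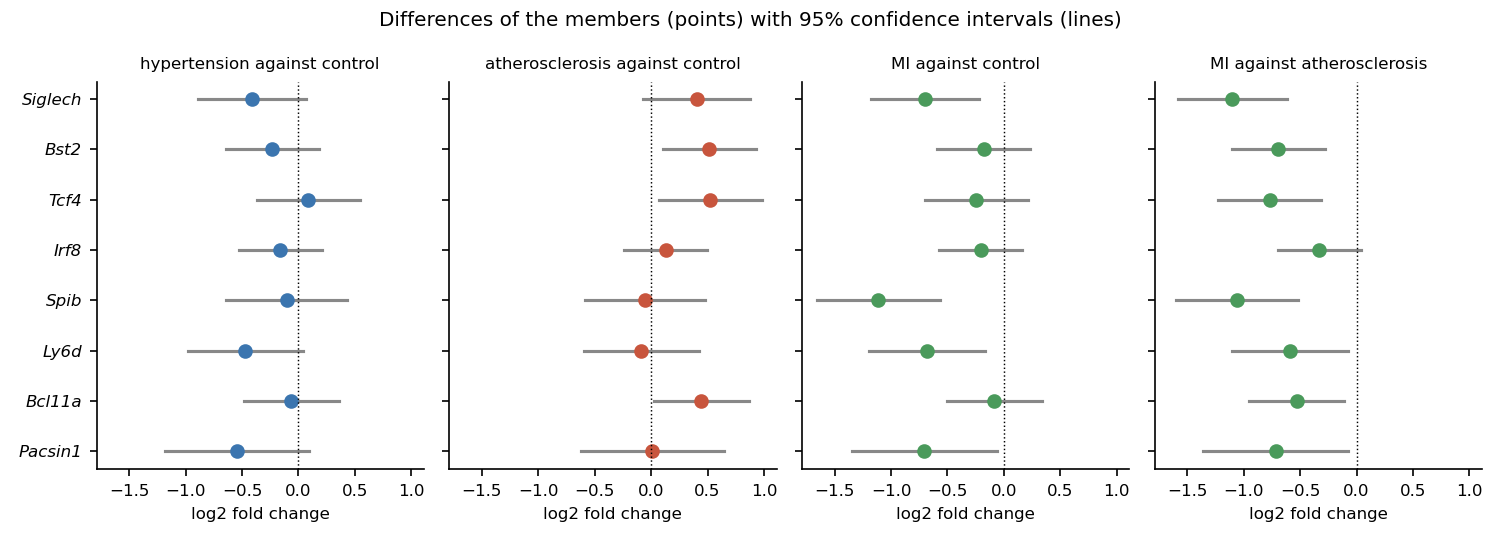
Log2 fold changes (horizontal axes) of the 8 genes in 4 comparisons, as points with 95% confidence intervals as lines and 0 dotted. The *Spib* interval in MI against control runs from -1.66 to -0.57, and in MI against atherosclerosis the intervals of all genes other than *Irf8* lie below 0, while no gene passed the adjusted test.

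Differences between disease groups were tested directly, in which the controls do not enter as a group. MI and atherosclerosis were furthest apart, with a median log2 fold change of -0.70 for the 8 genes beside -0.021 over all genes. *Siglech* was at 31.8 CPM in MI against 68.3 CPM in atherosclerosis, 53.4% lower, with a log2 fold change of -1.10 (95% confidence interval -1.58 to -0.62, adjusted p = 0.0596, edgeR quasi-likelihood test, 3 of 3 libraries below all of the other group). *Spib* had a log2 fold change of -1.06 (adjusted p = 0.102), *Tcf4* of -0.77 and *Bst2* of -0.69 (both at adjusted p = 0.166, edgeR), each with 3 of 3 libraries below. None of the 8 genes passed, beside 0.269% of all genes. By unadjusted p, 7 of 8 genes, all but *Irf8*, were lower, beside 7.36% of all genes, and 4 of 8 did not overlap, beside 7.44%. This comparison alone gave calls in other fits. *Siglech* and *Spib* passed with edgeR's likelihood-ratio test, which the study used (adjusted p = 0.00206 and 0.0117), and without the filter on low counts (0.0142 and 0.0301), and with DESeq2 *Siglech*, *Spib* and *Tcf4* did (0.00135, 0.00992 and 0.0430). These fits also called more of all genes than the 43 of 15999 of the quasi-likelihood test. They called 274 of 15999 with the likelihood-ratio test, 124 of 31781 without the filter and 311 of 15999 with DESeq2. With atherosclerosis replicate 2 left out, 93 of 16352 genes were called, and of the 8 *Siglech* alone passed (adjusted p = 0.0144, edgeR, log2 fold change -1.30). Over all alternatives its adjusted p lay between 0.00135 and 0.355.

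Atherosclerosis against hypertension gave no call among the 8 genes, beside 0.0625% of all genes, and 3 of 8 at an unadjusted p under 0.05 and higher, beside 3.86% of all genes. These were *Siglech* (log2 fold change 0.82, unadjusted p = 0.00266), *Bst2* (0.75, unadjusted p = 0.00181) and *Bcl11a* (0.51, unadjusted p = 0.0216, edgeR). *Siglech*, *Bst2* and *Tcf4* were higher without overlap, 3 of 8 beside 5.81% of all genes. Without atherosclerosis replicate 2, 5 of 8 genes were at an unadjusted p under 0.05 and none was called, beside 36 of 16352 genes called. For that fit the share of all genes at an unadjusted p under 0.05 was not determined. MI against hypertension gave no call either, beside 0% of all genes. *Spib* was the single gene at an unadjusted p under 0.05, with a log2 fold change of -1.01 (unadjusted p = 0.00146, adjusted p = 0.52, edgeR, 3 of 3 libraries below), 1 of 8 beside 4.23% of all genes in that direction, and 1 of 8 without overlap beside 10.2%. The other 7 log2 fold changes in MI against hypertension lay between -0.33 and 0.052.

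Over the 12 libraries, the 28 pairs of genes had Pearson's r of log2 CPM between -0.022 and 0.89, with a median of 0.55. *Siglech* was set against the other 7 genes in a permutation test with 100000 resamples, adjusted over these 7. The resamples shuffled libraries across groups, so that differences between groups enter these p-values. *Siglech* varied most with *Pacsin1* (r = 0.89, adjusted permutation p = 0.00091, Spearman's rho = 0.90, adjusted permutation p = 0.00105) and with *Bst2* (r = 0.87, adjusted permutation p = 0.0014, rho = 0.69, adjusted permutation p = 0.0276). *Irf8* (r = 0.78, rho = 0.80) and *Ly6d* (r = 0.78, rho = 0.81) had the same adjusted permutation p of 0.00453 for r and 0.0066 for rho. For *Spib* (r = 0.56, rho = 0.45, adjusted permutation p = 0.0851 and 0.192), *Tcf4* (r = 0.50, rho = 0.43, adjusted permutation p = 0.111 and 0.192) and *Bcl11a* (r = 0.27, rho = 0.30, adjusted permutation p = 0.39 and 0.343) the relation did not pass. Without the libraries farthest from the median of *Siglech*, atherosclerosis replicate 4 and MI replicate 2, r was 0.87 with *Pacsin1*, 0.82 with *Irf8*, 0.71 with *Ly6d* and 0.69 with *Bst2*, but 0.38 with *Spib*, 0.18 with *Tcf4* and 0.19 with *Bcl11a*.

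Within groups, that is in deviations from the group means, the 28 values of r ran from -0.77 to 0.92, with a median of 0.30. *Siglech* and *Pacsin1* had r = 0.92 within groups, and *Siglech* and *Bcl11a* r = -0.76. A division of the genes chosen after these values were seen, and therefore not tested, separates *Tcf4*, *Bcl11a* and *Spib*, with r between 0.62 and 0.86 among themselves within groups, from *Siglech*, *Bst2*, *Irf8*, *Ly6d* and *Pacsin1*, with r between 0.32 and 0.92. Between these sets r within groups was between -0.77 and 0.43.

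**Figure D3:**
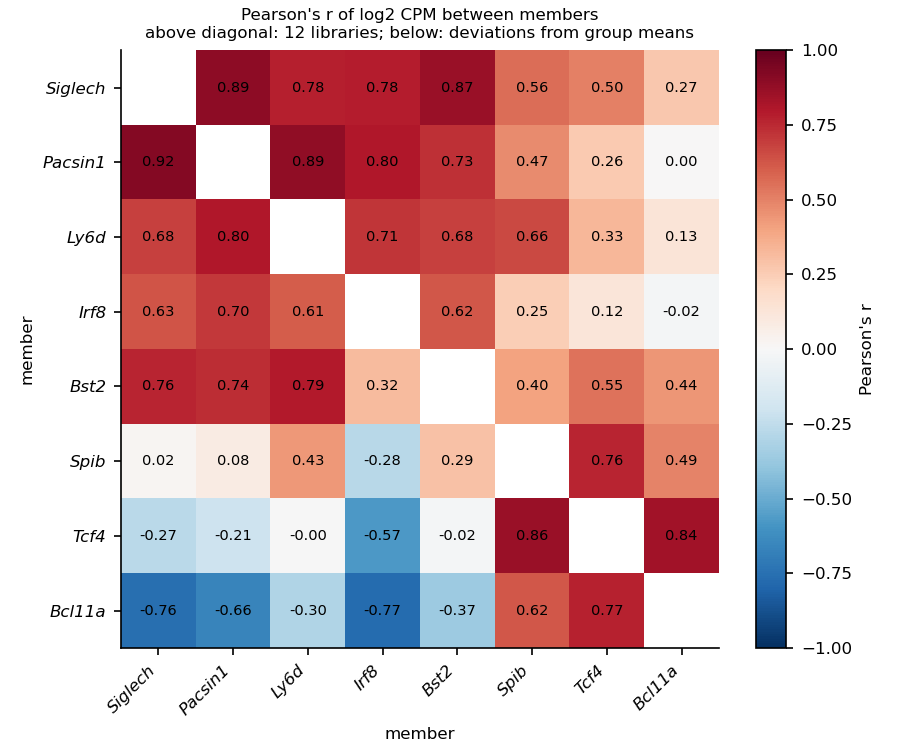
Pearson's r of log2 CPM between the 8 genes, as color and number, over the 12 libraries above the diagonal and in deviations from group means below it. *Siglech* and *Pacsin1* have 0.89 and 0.92, whereas *Siglech* and *Bcl11a* have 0.27 and -0.76.

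The genes most like each of the 8 were sought among 10158 genes with a mean of at least 5 CPM, by Pearson's r over the 12 libraries. For *Siglech* these were *Tmem135* (r = 0.96), *Gpr171* (0.95), *Oasl1* (0.95), *Cd4* (0.94) and *Slfn8* (0.93). For *Bst2* they were *Xaf1* (0.97), *Ifi27l2a* (0.95), *Oas1a* (0.94), *H2-T23* (0.93) and *Oasl1* (0.92), and *Xaf1*, *Ifi27l2a*, *Oas1a* and *Oasl1* are known as interferon-induced genes. For *Spib* they were *Stxbp3*, *Cpm*, *Ablim1*, *Cd72* and *Slain1*, with r between 0.92 and 0.95, among which *Cd72* encodes a B cell surface protein. *Tcf4* was most like *Ikzf3* (0.96), which encodes the lymphoid factor Aiolos, and then *Atf7ip*, *A630089N07Rik*, *Ttc9c* and *Cacna1e*. *Irf8* was most like *Nfatc3* (0.92), followed by *Sertad3*, *Rnf114*, *Spty2d1* and *Cd7*, *Ly6d* was most like *Ikbip* (0.95), followed by *Rhoh*, *Arl5c*, *Tifa* and *Coq10b*, and *Bcl11a* was most like *Mast4* (0.94), followed by *Runx1*, *Maf*, *Trim12a* and *Rsrc2*. *Pacsin1* was most like *Slc39a10* (0.94), *Cyb5d2* (0.94), 5430427O19Rik (0.91), *Icam2* (0.90) and *Siglech* (0.89).

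Of 20 other genes used to recognize plasmacytoid dendritic cells, 19 were tested and none was called in any comparison by the quasi-likelihood test. In MI against atherosclerosis 2 were called by the likelihood-ratio test and 3 by DESeq2, beside 274 and 311 of 15999 genes. *Flt3* and *Ly6c2* among the 20 also stand on the lists of conventional dendritic cells and monocytes. The sum of the 20 genes was 1505 to 1658 CPM in controls and 1200 to 1315 CPM in hypertension. It was 1425 to 1711 CPM in atherosclerosis and 1423 to 1731 CPM in MI, and both groups overlapped with controls. At an unadjusted p under 0.05 against controls, 4 were lower in hypertension, beside 3.71% of all genes in either direction (edgeR). By the same test 2 were higher in atherosclerosis, beside 3.97% of all genes, and 2 lower in MI, beside 1.57%. Against controls, 16 of the 19 were lower in hypertension (median log2 fold change -0.17), 15 were higher in atherosclerosis (median 0.28) and 13 were lower in MI (median -0.15), counting every gene whether or not it passed. *Klk1*, a kallikrein found in mouse plasmacytoid dendritic cells, was at 4.83 ± 1.01 CPM in controls, 6.07 ± 0.589 CPM in atherosclerosis and 2.66 ± 0.354 CPM in MI (SD, n = 3), with log2 fold changes of -0.68 in hypertension (unadjusted p = 0.0241), 0.33 in atherosclerosis (unadjusted p = 0.23) and -0.86 in MI (unadjusted p = 0.00748, edgeR). *Runx2*, a factor needed for the exit of these cells from the marrow, had a log2 fold change of 0.49 in atherosclerosis (unadjusted p = 0.011, edgeR) and -0.064 in MI. *Rnase6* was lower only at an unadjusted p in MI (log2 fold change -0.34, unadjusted p = 0.0368, edgeR), and *Lifr* had 1.34 in atherosclerosis (unadjusted p = 0.04, edgeR), at 53.1 ± 44.6 CPM against 21.1 ± 6.40 CPM (SD, n = 3). None of these passed the adjusted test.

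Of 10 genes of the sensing pathway upstream of interferon, 9 had enough counts to be tested, while *Tlr9* did not. None was called by edgeR's quasi-likelihood test. In MI against atherosclerosis 1 was called by the likelihood-ratio test and 1 by DESeq2, beside 274 and 311 of 15999 genes. At an unadjusted p under 0.05 against controls 1 was lower in hypertension, *Irak4* (log2 fold change -0.35, unadjusted p = 0.0451, edgeR), beside 3.71% of all genes in either direction. In atherosclerosis 1 was higher, beside 3.97% of all genes. *Irf7*, the interferon regulatory factor that drives interferon alpha genes, was at 205 ± 29.1 CPM in atherosclerosis against 90.6 ± 13.5 CPM in controls (SD, n = 3), a log2 fold change of 1.17 (unadjusted p = 0.00335, adjusted p = 0.402, edgeR), and at 68.9 ± 36.3 CPM in MI. The log2 fold changes of *Slc15a4* and *Irak1* were -0.45 in MI and 1.15 in atherosclerosis, at unadjusted p of 0.0523 and 0.059, and that of *Traf6* was 0.40 in MI (unadjusted p = 0.152, edgeR). *Irak1* was at 303 ± 319 CPM in atherosclerosis, from 113 to 671 CPM, against 137 ± 14.8 CPM in controls (SD, n = 3). Of the 17 genes of type I interferons in the table, none had enough counts for a test, 12 had no count in any library and 16 had no library above 3 counts, which in these libraries allows up to 0.116 to 0.176 CPM. The remaining gene, *Ifnk*, had at most 4 counts in a library. Among 6 genes of other E proteins and their Id inhibitors, none was called by the quasi-likelihood test or at an unadjusted p under 0.05 against controls. In MI against hypertension DESeq2 called 1, beside 22 of 15999 genes. *Id2*, which opposes E2-2, was at 179 ± 145 CPM in MI and 92.9 ± 17.5 CPM in controls (SD, n = 3), with a log2 fold change of 0.94 (unadjusted p = 0.0578, edgeR). MI replicate 2 was at 346 CPM, and replicates 3 and 4, at 88.7 and 101 CPM, lay within the control range of 78.1 to 112 CPM. *Tcf3* had -0.40 in MI (unadjusted p = 0.0571), and *Id3* and *Id4* had -0.69 in MI and -0.42 in atherosclerosis, at unadjusted p of 0.131 and 0.281 (edgeR).

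Several of the 8 genes, *Spib*, *Bcl11a*, *Tcf4*, *Irf8* and *Ly6d*, are also active in B lineage cells, and *Bst2* is also induced by interferon, so that both lists are given beside them. The sum of 16 B lineage genes was 648 to 889 CPM in controls, 716 to 1050 CPM in hypertension, 623 to 1360 CPM in atherosclerosis and 254 to 598 CPM in MI, and no gene was at 0 in all libraries. In MI, the log2 fold changes of all 16 genes against controls were negative (median -0.68). Of these, 10 did not overlap between groups, beside 4.59% of all genes in that direction. At an unadjusted p under 0.05 there were 11, beside 1.57% of all genes in that direction, and none was called. *Cd79b* had -0.54, *Fcrla* -0.70 and *Rag2* -1.15, at unadjusted p of 0.0063, 0.00767 and 0.012 (edgeR). With the log2 share of B lineage counts as a covariate, the log2 fold changes in MI were -0.73 for *Spib*, -0.87 for *Siglech*, -0.76 for *Ly6d* and -0.94 for *Pacsin1*, while those of *Tcf4* and *Bcl11a* were 0.14 and 0.24. The covariate was chosen with the B lineage values known, and adjusted p of the 8 genes lay between 0.384 and 0.788.

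The sum of 20 interferon response genes, none of them among the 8, was 678 to 820 CPM in controls, 661 to 771 CPM in hypertension, 1182 to 1666 CPM in atherosclerosis and 380 to 697 CPM in MI. In atherosclerosis 19 of 20 were higher than in controls. Of these, 14 were at an unadjusted p under 0.05, beside 3.97% of all genes in that direction, and none was called. The likelihood-ratio test called 5 and DESeq2 6, beside 81 of 15999 genes with each. The median log2 fold change of the 20 was 0.88. *Rsad2* had 1.18 (adjusted p = 0.0672), *Oas2* 2.04 (0.155), *Oas1a* 1.12 (0.235) and *Oas3* 1.26 (0.29, edgeR). Against atherosclerosis, 3 of the 20 were called by the quasi-likelihood test and fell in MI, beside 0.269% of all genes. The likelihood-ratio test called 12 and DESeq2 14, beside 274 and 311 of 15999 genes. The 3 of the quasi-likelihood test were *Rsad2* (log2 fold change -1.26, adjusted p = 0.0375), *Oas1a* (-1.58, adjusted p = 0.0344) and *Ifi44* (-2.92, adjusted p = 0.0401, edgeR). Against hypertension *Oas1a* alone was called by that test and rose in atherosclerosis (1.79, adjusted p = 0.0265, edgeR), beside 0.0625% of all genes. There the likelihood-ratio test called 6 and DESeq2 9, beside 70 and 76 of 15999 genes.

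Relations of the 8 genes with the sums of B lineage, interferon response and neutrophil genes, 24 in all, were computed after the data were seen and are given without a test. *Spib* had r = 0.86 (rho = 0.80) with the B lineage sum over the 12 libraries, 0.76 without atherosclerosis replicate 2 and MI replicate 2, and 0.73 within groups. *Tcf4* had r = 0.83 (rho = 0.53), 0.27 without these libraries and 0.90 within groups. *Siglech* had r = 0.30 (rho = 0.18) with the same sum. With the interferon response sum, r was 0.89 for *Bst2* (rho = 0.68) and 0.86 for *Siglech* (rho = 0.75), 0.74 and 0.65 without atherosclerosis replicate 4 and MI replicate 2, and 0.77 and 0.67 within groups. The part of B lineage cells and of interferon in the levels of the 8 genes was not tested.

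**Figure D4:**
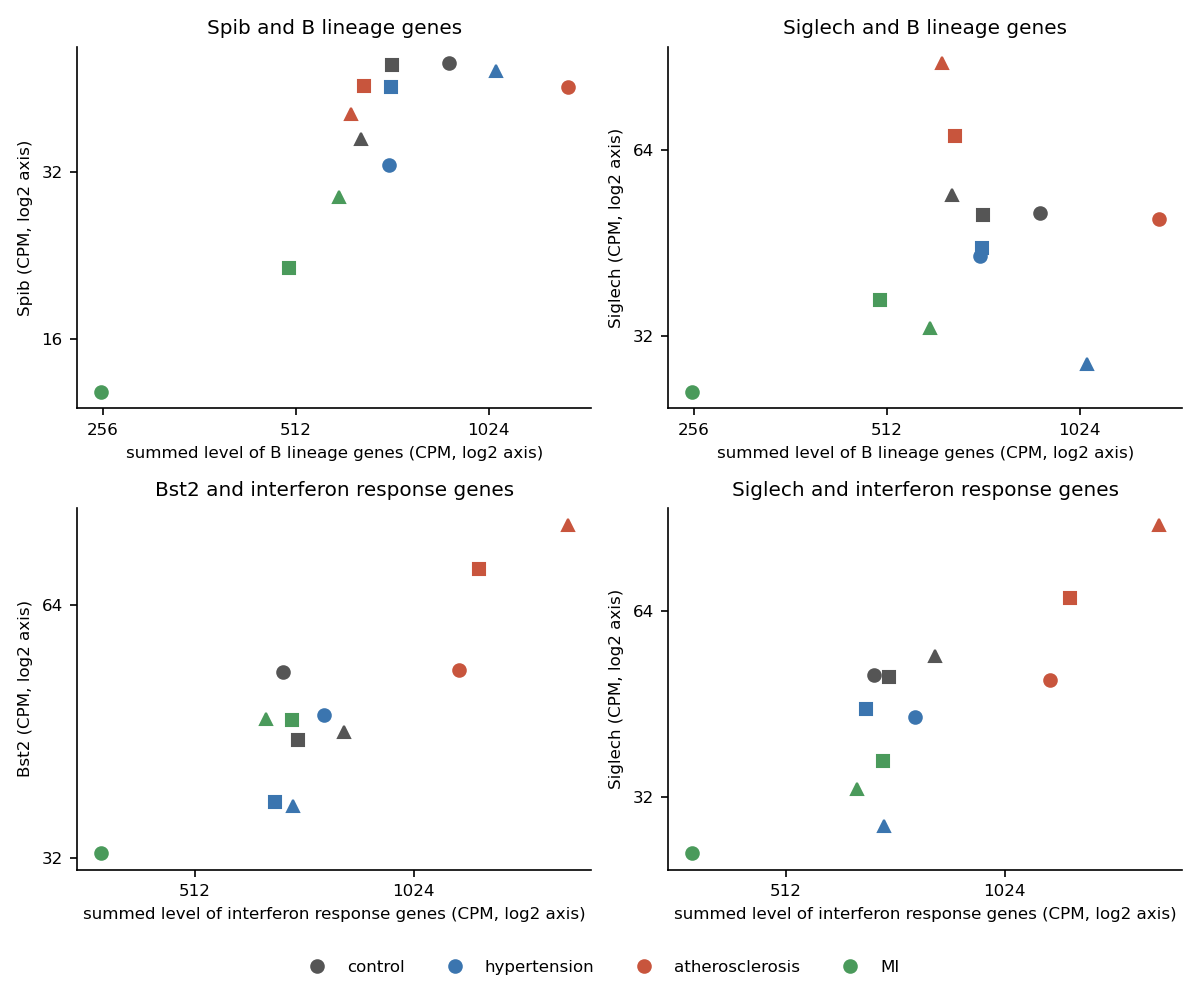
Levels of *Spib*, *Bst2* and *Siglech* (vertical axes, CPM, log2 scale) against the summed level of 16 B lineage genes or 20 interferon response genes (horizontal axes, CPM without TMM scaling, log2 scale) in the 12 libraries, with the group as color and replicate 2, 3 and 4 as circle, square and triangle. The 3 MI libraries have the lowest B lineage sums, 254 to 598 CPM, and the 3 atherosclerosis libraries the highest interferon response sums, 1182 to 1666 CPM.

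The other marrow cell types were summed in the same way, and no gene of their lists was called in any comparison with controls, apart from the T and NK cell gene *Gzma* in atherosclerosis by the likelihood-ratio test and DESeq2 (adjusted p = 0.0209 and 0.00219), which was at adjusted p = 0.114 in the quasi-likelihood test (edgeR). Of 10 genes of conventional dendritic cells, 9 were higher in atherosclerosis and 6 lower in MI, *Itgax* having 0.69 in atherosclerosis (unadjusted p = 0.0208), *Ccr7* -1.01 in MI (unadjusted p = 0.0105), *Clec9a* 0.71 in atherosclerosis (unadjusted p = 0.0652) and *Cd209a* -0.89 in MI (unadjusted p = 0.0907, edgeR). The list summed to 138 to 257 CPM in controls, 193 to 217 CPM in hypertension, 154 to 234 CPM in atherosclerosis and 86.4 to 165 CPM in MI, and no gene was at 0 in all libraries. The neutrophil sum was 61070 to 80379 CPM in controls, 38695 to 55229 CPM in hypertension, 35397 to 70132 CPM in atherosclerosis and 65741 to 92962 CPM in MI. With the log2 neutrophil share as a covariate, the log2 fold changes in atherosclerosis were 0.62 for *Bst2* and 0.55 for *Siglech*, against 0.24 for *Tcf4* and 0.23 for *Bcl11a*. Monocyte genes summed to 4681 to 12645 CPM, erythroid genes to 12029 to 44530 CPM, plasma cell genes to 901 to 2177 CPM and T and NK cell genes to 353 to 798 CPM over the 12 libraries.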

How the data were processed

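Cells sorted as bone marrow endothelial cells gave polyadenylated RNA for 12 directional libraries, a single mouse each. Per the labels and methods, the authors aligned reads to GRCm38.p6 with STAR 2.7.3a and deposited raw counts per Ensembl gene (GeneCounts). Which strand column was taken is not given in the sources used here. Here, groups and replicate numbers came from the labels. Counts were scaled by TMM in edgeR 4.0.16 (R 4.3.3), filtered with filterByExpr, and fitted in 1 model with all 12 libraries (glmQLFit, 8 residual degrees of freedom). Each of 6 contrasts was tested two-sided by glmQLFTest with Benjamini-Hochberg adjustment over 15999 genes, called at an adjusted p under 0.05. Standard errors are the log2 fold change divided by the root of F. An exact permutation test, two-sided and 3 against 3, was used for single values. Correlations used log2 CPM with a prior count of 2. Quasi-likelihood p-values of the group comparisons rest on the spread between mice within groups, estimated over all 12 libraries and moderated across genes. Those of the correlations come from shuffling the 12 libraries across groups, so that differences between groups enter them. Symbols, positions and lengths came from GENCODE M21, with 55240 of 55421 genes matched, and promoters from RefSeq. Intervals of fold changes come from the standard errors of this model, and the minimum of 3 counts covers counting error only.

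Members and gene lists were chosen with earlier results of these data known. All 8 members are named, and from each other list the 4 genes with the smallest unadjusted p in atherosclerosis or MI against control, of which 1 is not reported here. Further genes included the 5 most alike each member and *Tlr9*, which had too few counts for a test. Lists were written by hand as symbols, and 1 erythroid symbol was not matched. Alternatives were the likelihood-ratio test, DESeq2 1.42.0, RLE size factors, other count filters (none, or 10 counts in every library), 2 groups only, a replicate block, immunoglobulin and hemoglobin genes left out (409 genes), B lineage or neutrophil share as covariate, and each library left out. The steps were tested on simulated counts.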

Additional observations from a re-analysis of the deposited data

How the results depend on the processing

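Of 768 values of the 48 log2 fold changes under alternatives, 728 kept their direction and did not pass the adjusted test, 8 passed it and 32 changed direction. The cause of these changes was not tested. In MI against atherosclerosis, 2 of the 8 genes were called with the likelihood-ratio test, 3 with DESeq2, 2 without the filter on low counts and 0 to 1 with a library left out. The last call, for *Siglech*, came without atherosclerosis replicate 2, where 93 of 16352 genes were called. Over all genes, the likelihood-ratio test called 274 of 15999, DESeq2 311 of 15999 and the fit without the filter 124 of 31781. Shares of all genes at an unadjusted p under 0.05 were not determined for the alternatives. In the other 5 comparisons no member was called under any alternative that was run.

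The direction of some log2 fold changes turned. With the neutrophil share as covariate, these were -0.23 for *Tcf4* and 0.058 for *Irf8* in hypertension against control, 0.14 for *Ly6d* in atherosclerosis against control, and -0.10 for *Bst2*, 0.073 for *Tcf4* and 0.29 for *Bcl11a* in MI against hypertension. With the B lineage share as covariate, *Tcf4* was at 0.14 and *Bcl11a* at 0.24 in MI against control, and at 0.12 and 0.37 in MI against hypertension. With a library left out, the range in hypertension against control was -0.23 to 0.050 for *Spib*, -0.25 to 0.049 for *Bcl11a* and -0.035 to 0.20 for *Tcf4*. In atherosclerosis against control it was -0.18 to 0.019 for *Spib*, -0.31 to 0.16 for *Ly6d* and -0.16 to 0.27 for *Pacsin1*, and against hypertension -0.10 to 0.16 for *Spib*. In MI against hypertension it was -0.033 to 0.21 for *Bst2*, -0.13 to 0.014 for *Irf8*, -0.15 to 0.16 for *Bcl11a* and -0.39 to 0.025 for *Pacsin1*.

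Replicate numbers were shared by the groups. In deviations from group means, same-numbered libraries had r between -0.42 and 0.38, over 0.1 in 8 of 18 pairs. Libraries with different numbers had r between -0.44 and 0.56, over 0.1 in 12 of 36 pairs. With 3 libraries per group, these values cannot decide whether same-numbered libraries were handled together. With the replicate block, *Pacsin1* in atherosclerosis against control was at -0.018, and 0 members were called in MI against atherosclerosis, as without the block. The median r among members was 0.55, 0.30 in deviations from group means and 0.38 to 0.66 with a library left out. With 3 mice per group, a log2 fold change of 0.51 for *Bst2* in atherosclerosis had an interval from 0.10 to 0.93, and *Pacsin1*, at 90 to 297 counts, was measured least precisely.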
